A study of Danio rerio with 4 samples.

Results

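Hif-1α binding on zebrafish chromosome 4 was examined by position. All peaks on this chromosome were taken from both deposited peak lists, which gave 158 of the 5177 *vhl* peaks (3.05%) and 43 of the 1280 wild-type peaks (3.36%), 201 of 6457 peaks in all. They were divided at position 27000000 of the Zv9 (danRer7) assembly. The far part, at or above this position, held 8 *vhl* and 14 wild-type peaks. The near part, below it, held 150 *vhl* and 29 wild-type peaks. The division uses position alone and none of the measured values, although it was chosen with earlier results of these data known.

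The *vhl* sample was 1 pool of homozygous *vhl* hu2117 mutant embryos that also carried the phd3:gfp i144 reporter, by which mutants were picked out, and the wild-type sample was 1 pool of wild type embryos. Both were of the strain TL/LWT mix and were taken at 4 days post fertilisation, de-yolked and used whole, so every cell type of the embryo contributed. Chromatin was precipitated with a custom Hif-1α antibody, and a *vhl* and a wild-type input library had no antibody step. Neither genotype was replicated, so no test between the parts was made. Intervals below are 95% intervals that cover counting error only and take peaks as independent, although some lie close together.

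Hif-1α is the oxygen-regulated subunit of the hypoxia inducible factor. In the presence of oxygen it is hydroxylated, recognised by pVHL and degraded, and in *vhl* mutants it is stabilised and binds hypoxia response elements near its target genes. Chromosome 4 is unlike the other zebrafish chromosomes in that its long arm is rich in repeated sequence, replicates late and holds few of the conserved protein-coding genes, whereas its short arm resembles the rest of the genome. No Zv9 sequence or annotation was used here, so the parts are called by their position and not as chromosome arms.

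The study tested 2 regions of chromosome 4 by ChIP-qPCR, chosen from its highly significant *vhl* peaks with a hypoxia response element. It reports enrichment of all its tested regions in *vhl* ChIP and some enrichment of many of them in wild-type ChIP. Both regions of chromosome 4 lie in the near part. Their primers are shown because they are the sequences by which binding at these strong sites was measured. The primers are written in lower case, as no part of them was singled out.
pfkfb3 forward: tttgcagcttaaagacccttg
pfkfb3 reverse: agggaatgggtggcagtag
si:dkey-14d8.7 forward: gagagcgatagaaagagggagag
si:dkey-14d8.7 reverse: gggaggtactgggatcagaaa
The study pairs *pfkfb3*, whose enzyme controls the level of a potent activator of glycolysis, with the *vhl* peak at chr4:24572059-24573328. It pairs *si:dkey-14d8.7* with the *vhl* peak at chr4:5415742-5416776. In RefSeq's newer assembly GRCz12tu both genes are again on chromosome 4, where the protein-coding neighbours of *si:dkey-14d8.7* are *si:dkey-14d8.6* and *vegfab*, which encodes an angiogenic ligand.

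*vhl* peaks were sparse in the far part of chromosome 4 and dense in the near part. The density was 0.233 peaks per Mb in the far part (interval 0.101 to 0.460, 8 peaks over 34.3 Mb) and 5.56 peaks per Mb in the near part (interval 4.70 to 6.52, 150 peaks over 27 Mb). The far part ends here at the outermost peak of either list. The ratio of far to near density was 0.0420 (interval 0.0178 to 0.0849), so the near part was 23.8 times as dense. On the other 24 chromosomes together, divided at the same position, the density was 3.90 peaks per Mb at or above it and 3.88 below it, a ratio of 1.005 (interval 0.95 to 1.06). Set against these, the far part of chromosome 4 had 0.0599 times their density at or above the boundary (interval 0.0258 to 0.118), and the near part 1.43 times their density below it (interval 1.21 to 1.69). Set against the same positions, chromosome 4 thus departed from the others in both directions, by a much larger factor in the far part. The near part was not the densest part of all, as chromosome 11 had 6.43 *vhl* peaks per Mb at or above the boundary.

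Of the *vhl* peaks on chromosome 4, 5.06% lay at or above the boundary. On each of the other chromosomes this share was between 23.0%, on chromosome 22, and 64.6%, on chromosome 7. The far-to-near density ratio of the others ran from 0.529 to 1.79 with a median of 1.07, and chromosome 4 had the lowest of the 25. The near part of chromosome 4 stood at the other end of the order. Since every chromosome reaches past the boundary, its first 27 Mb can be compared directly, and chromosome 4 held 150 *vhl* peaks there against 87 to 134 on the others. Without the 10 peaks of the *pfkfb3* region that the study displays its count was 140, still the highest. The study's own count of peaks near this gene is lower, and the difference was not examined. The density of chromosome 4 as a whole, 2.58 *vhl* peaks per Mb, was the lowest of the 25 chromosomes, against 2.91 to 5.00 on the others, and it averages these unlike parts.

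Wild-type peaks were also fewer per Mb in the far part, by a smaller factor. Their density was 0.408 per Mb in the far part (interval 0.223 to 0.685, 14 peaks) and 1.07 per Mb in the near part (interval 0.719 to 1.54, 29 peaks), a ratio of 0.380 (interval 0.186 to 0.743). The other chromosomes had a ratio of 1.03 (interval 0.919 to 1.15), with single chromosomes between 0.491 and 1.83. Chromosome 4 was again the lowest of the 25, but it lay close to chromosome 12, which had the next lowest wild-type ratio of 0.491. The near part had 1.14 times the wild-type density of the other chromosomes below the boundary, with an interval of 0.755 to 1.65 that includes 1. For *vhl* the gap to the next lowest chromosome, 0.0420 against 0.529, was much wider.

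**Figure D1:**
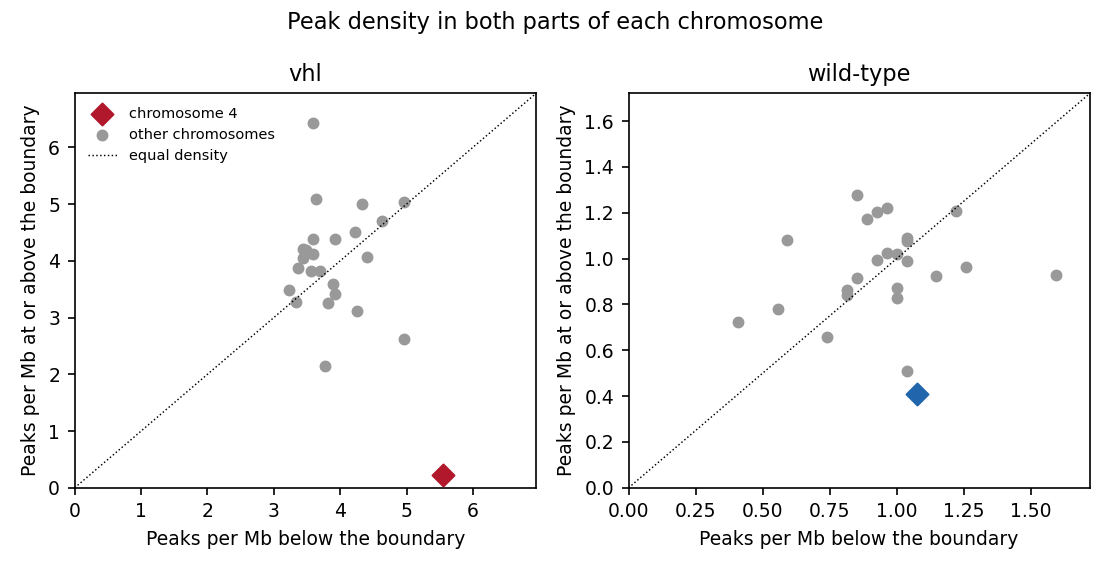
Peaks per Mb at or above the boundary (vertical axis) against peaks per Mb below it (horizontal axis), 1 point per chromosome, with *vhl* on the left and wild-type on the right. The diamond is chromosome 4 and the dotted line marks equal density. For *vhl*, chromosome 4 lies at 0.233 at or above and 5.56 below the boundary, apart from the grey points, whereas for wild-type it lies at 0.408 at or above and 1.07 below, near the lowest of them.

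Counted in windows of 3 Mb that meet at the boundary, *vhl* peaks were many below it and few above it. Starting from the first base, the 9 windows of the near part held 23, 25, 16, 8, 12, 24, 8, 20 and 14 *vhl* peaks. In the last of these, the peaks of the *pfkfb3* region end at position 24574052. Only the peak at chr4:25122589-25123200 follows before the boundary, so the fall began ahead of it. The first window of the far part held 3, the next 9 windows held none, and the last whole window held 4. Of the 417 whole windows on the other chromosomes, 0 were without a *vhl* peak (the lowest count was 1 and the median 10). Wild-type peaks were spread more evenly, with 2, 2, 6, 1, 5, 2, 6, 3 and 2 in the windows of the near part and with none in 5 of the 11 whole windows of the far part. On the other chromosomes 39 of 417 windows had no wild-type peak.

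**Figure D2:**
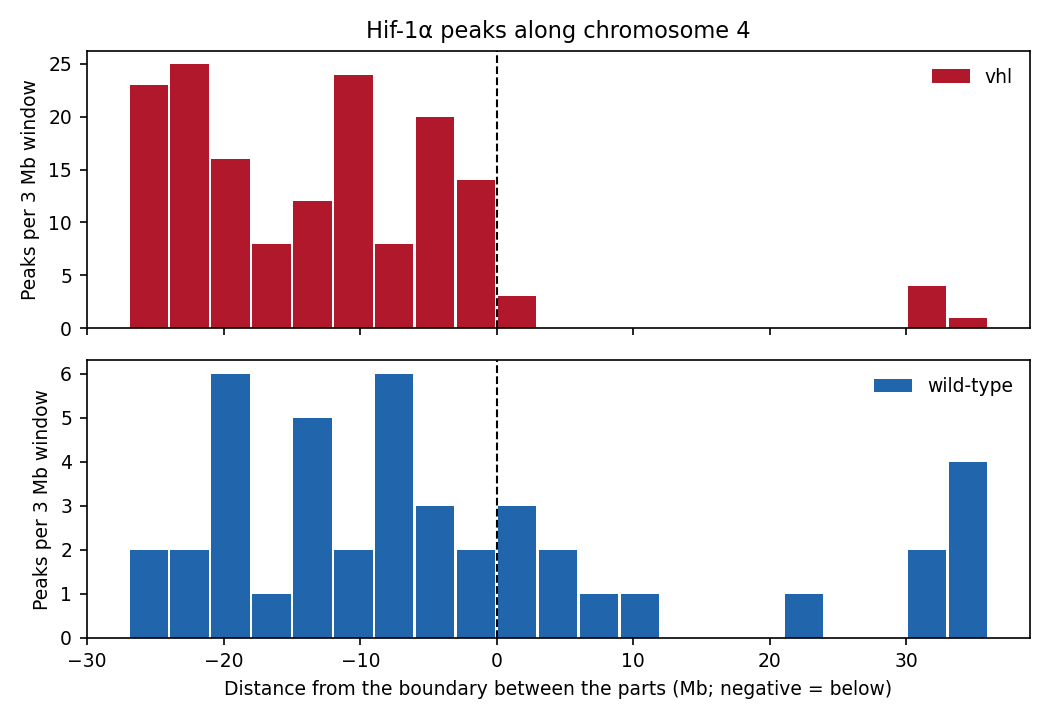
Number of *vhl* peaks (top) and wild-type peaks (bottom) in windows of 3 Mb along chromosome 4, by distance from the boundary in Mb. The *vhl* bars stand at 0 for 9 consecutive windows above the boundary and at 8 to 25 below it. In the same 9 windows the wild-type bars stand at 0 to 2, with most of the peaks towards the boundary. The last bar is from an incomplete window.

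The empty windows belong to a single stretch. Between the *vhl* peaks at chr4:29271773-29272319 and chr4:59374527-59374882 no *vhl* peak was called over 30102207 bp, 49.1% of the length of the chromosome up to its last peak. The stretch was defined by its lack of *vhl* peaks, so its count of 0 is given without an interval. The longest stretch without a *vhl* peak on any other chromosome was 3.77 Mb, on chromosome 7, and the shortest of these maxima was 1.53 Mb, on chromosome 21. Only 6 stretches of more than 3 Mb were found in the whole *vhl* list. The wild-type list held 6 peaks inside the empty stretch, 0.199 per Mb (interval 0.0731 to 0.434). Its own longest stretches without a peak, of 10.1 and 9.48 Mb, also lay on chromosome 4, inside the same region. The longest elsewhere was 6.57 Mb, on chromosome 22. Stretches at either end of the empty region held both kinds of peak. From the boundary to its start there were 3 *vhl* and 3 wild-type peaks over 2.27 Mb, and after its end there were 5 and 5 over 1.93 Mb. Of these last 5 wild-type peaks, 4 lay within 3634 bp, with fold enrichments of 3.42 to 8.39.

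**Figure D3:**
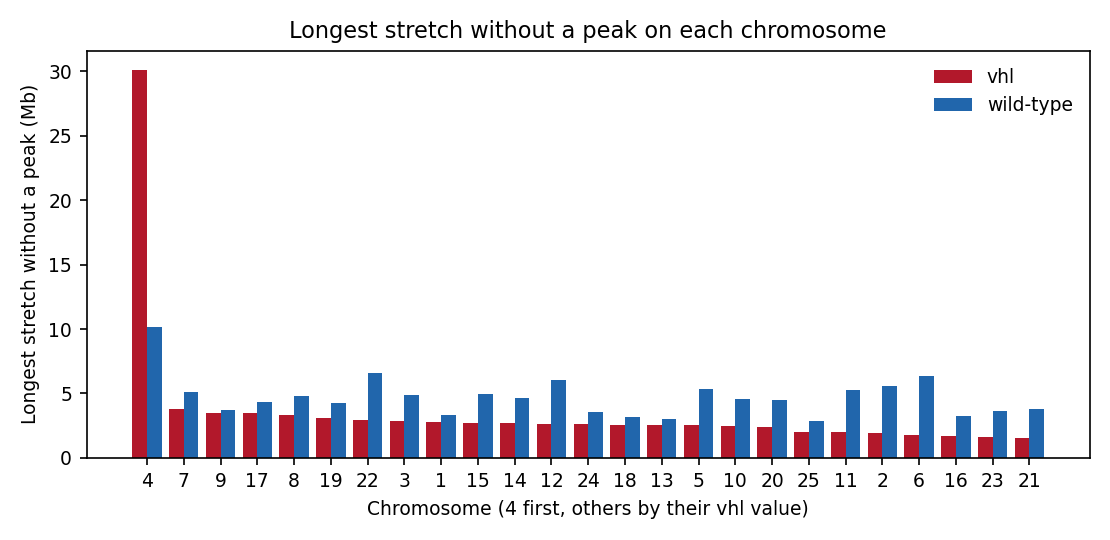
Longest stretch without a peak on each chromosome in Mb, for the *vhl* list and the wild-type list, with chromosome 4 on the left and the other chromosomes in order of their *vhl* value. The *vhl* bar of chromosome 4 reaches 30.1 Mb and those of the others lie between 1.53 and 3.77 Mb. The wild-type bars reach 10.1 Mb on chromosome 4 and 2.87 to 6.57 Mb elsewhere.

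All peaks were called from uniquely mapped reads of 35 bp. What share of either part such reads can reach was not analysed here, and the densities are per Mb of assembly.

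The 8 *vhl* peaks of the far part lay within the near part's ranges of tags and length. They held 49, 80, 50, 21, 138, 33, 27 and 45 tags in order of position, where a tag is a ChIP read left after removal of duplicates. Their median was 47 tags (middle 50% from 31.5 to 57.5), against 49.5 in the near part (37 to 79.5) and 47 on the other chromosomes. The median length was 499.5 bp in the far part, 582 bp in the near part and 566 bp on the other chromosomes. The ranges overlapped, with 356 to 873 bp in the far part inside the 266 to 1832 bp of the near part. Thus the far part differed from the near part in the number of *vhl* peaks, whereas the tags and lengths of its few peaks fell within the range of the near part.

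Their scores (minus 10 times the log10 of the peak caller's p-value) and fold enrichments over the local background were likewise within the range of the near part. The median score was 135 in the far part, 91.5 in the near part and 95.4 on the other chromosomes, and the median fold enrichment was 37.1, 26.6 and 27.3. With 8 peaks these differences rest on few values. Tags per kb divided by fold enrichment is a rough index of the local background, which also depends on peak shape and width. Its median was 2.41 in the far part, 3.06 in the near part and 2.96 on the other chromosomes. The false discovery rate (FDR) was at most 5% for 6 of the 8 peaks (75%, interval 40.9 to 92.9%) and for 117 of the 150 in the near part (78%, interval 70.7 to 83.9%), close to the 77.1% of the whole *vhl* list. A score of 100 or more was reached by 5 of 8 peaks in the far part and 71 of 150 in the near part (47.3%), against 47.9% of the whole list.

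The strongest *vhl* peak of the far part was at chr4:59479485-59480357. Its 873 bp held 138 tags, enriched 122.65-fold at an FDR of 0. With a score of 561.6 it was number 371 of the 5177 *vhl* peaks. It lay beyond the empty stretch, in a group of 5 peaks spread over less than 1 Mb. In the same group the peak at chr4:60226724-60227165 had 45 tags, enriched 36.16-fold, and a score of 135.89, and the peak at chr4:59859861-59860256 had 33 tags and a score of 99.27. The remaining pair, at chr4:59374527-59374882 and chr4:59957400-59957920, were the weakest of the far part, with 21 and 27 tags, scores of 55.2 and 58.89 and FDR values of 15.01% and 9.37%. One strong peak thus stood among 4 moderate or weak ones.

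Before the empty stretch, the peak at chr4:28471589-28472395 came next in strength in the far part, with 80 tags enriched 71.43-fold and a score of 228.4 (number 1052 of the list). The peak at chr4:29271773-29272319, the last before the empty stretch, had 50 tags, enriched 42.86-fold, and a score of 138.93. The first peak of the far part, at chr4:27455796-27456273, had 49 tags, enriched 38.02-fold, and a score of 134.52. It was 0.456 Mb past the boundary. The last *vhl* peak of the near part, at chr4:25122589-25123200, lay 1.88 Mb before the boundary, with 34 tags and a score of 54.66. The stretch around the boundary was thus free of *vhl* peaks on both sides, and moving the boundary within it leaves the counts as they are. The first *vhl* peak of the chromosome, at chr4:18824-19274, had 40 tags and a score of 77.99.

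For *vhl* peaks of the far part the nearest *vhl* neighbour was at a median distance of 186702 bp and at least 97143 bp away. In the near part the median distance was 35206 bp and the smallest 103 bp. None of the 8 peaks of the far part had another within 10 kb, which allows a share of up to 37.5%, against 38 of the 150 in the near part (25.3%) and 22.1% on the other chromosomes. At this number of peaks no difference in that share was detectable. More than 200 kb from any other *vhl* peak were 4 of 8 peaks in the far part and 17 of 150 in the near part (11.3%), against 16.1% on the other chromosomes. As *vhl* peaks are sparse in the far part, wider spacing follows from their density and is no separate result. The 38 peaks of the near part formed 14 runs, of which 11 had 2 peaks, 2 had 3 and 1 had 10.

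The near part held the strongest *vhl* peaks of the chromosome. None of the 8 peaks of the far part were among the 100 highest scores of the *vhl* list (0%, interval 0 to 32.4%). Of the 150 of the near part, 7 were (4.67%, interval 2.28 to 9.32%, against 1.93% of the list). The peak at chr4:24559981-24561812 and those of ranks 11, 36 and 55 lie together in the *pfkfb3* region, yet this interval takes them as independent. Among the 1000 highest were 1 of 8 in the far part and 33 of 150 in the near part (22%, interval 16.1 to 29.3%, against 19.3% of the list). In the near part the tags ran from 19 to 961 per peak, and the 10 peaks with the most tags held 35.6% of the 12341 tags in its *vhl* peaks.

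The peaks at chr4:21454676-21456051 and chr4:24559981-24561812 were among the 8 *vhl* peaks that share the highest score of the list, 3100. At chr4:21454676-21456051 there were 711 tags, enriched 196.51-fold, and the nearest *vhl* peak was 42371 bp away. The peak at chr4:24559981-24561812 carried 961 tags, the most on the chromosome, with a fold enrichment of 95.03, and belonged to the run of 10 peaks in the *pfkfb3* region. That run spanned 24735 bp and its peaks held 3005 tags, 24.3% of the tags in *vhl* peaks of the near part. The peak paired with *pfkfb3* had 595 tags, enriched 155.3-fold, and a score of 2884.05. Its neighbour at chr4:24573432-24574052, 103 bp away, had 358 tags, enriched 193.52-fold, and a score of 2046.71.

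Away from *pfkfb3*, the peak of *si:dkey-14d8.7* at chr4:5415742-5416776 was number 45 of the *vhl* list by score. It had 412 tags, enriched 159.85-fold, and a score of 1860.21. Another peak with 192 tags and a score of 916.74 followed 3461 bp further on. The largest fold enrichment on the chromosome, 211.04, belonged to the peak at chr4:6197603-6198701, which held 311 tags. This peak was chosen after its value was seen. No wild-type peak overlapped either gene's paired peak.

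**Figure D4:**
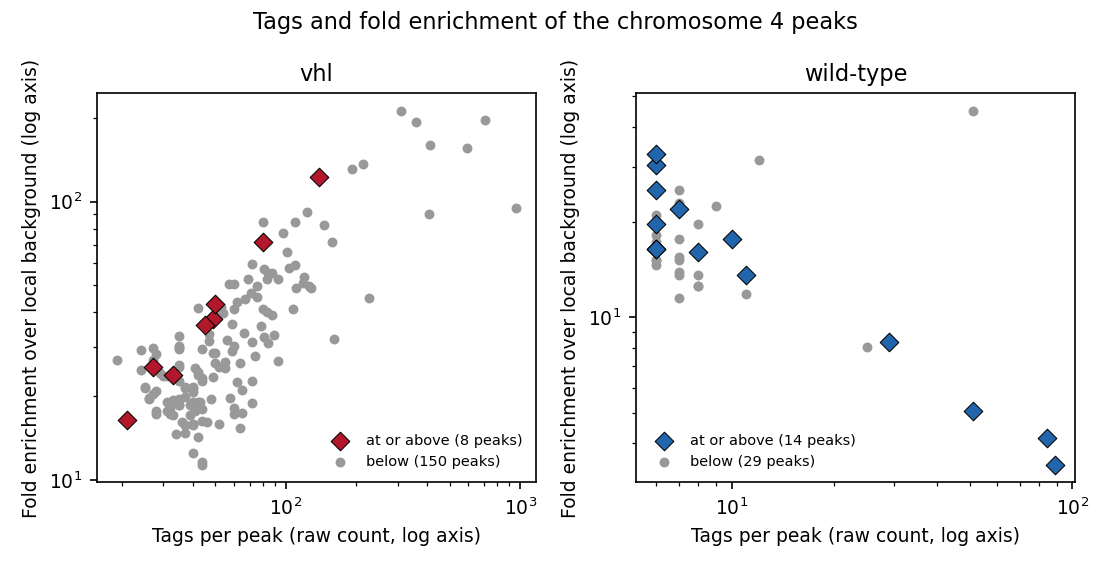
Fold enrichment over the local background (vertical, log axis) against tags per peak (horizontal, log axis) for each chromosome 4 peak, with *vhl* on the left and wild-type on the right. Diamonds are peaks at or above the boundary and grey points are peaks below it. The 8 *vhl* diamonds lie within the range of the grey points, at 21 to 138 tags, while 4 wild-type diamonds lie at the lower right, with 29 to 89 tags and fold enrichments of 3.42 to 8.39.

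The wild-type peaks of the far part were of 2 kinds. From chr4:28200039-28200140 to chr4:59694111-59694209, 10 peaks held 8, 6, 6, 6, 7, 11, 6, 6, 10 and 6 tags, with fold enrichments of 13.64 to 32.99. These values are like those of the near part, where the median was 7 tags (middle 50% from 6 to 8) and the median fold enrichment 16.7. The peak with the highest score of the far part, at chr4:58170735-58170859, was one of them, with 10 tags, enriched 17.72-fold, and a score of 88.21. The next by score, at chr4:48027026-48027077, had 6 tags over 52 bp, enriched 32.99-fold, and a score of 82.6. It was isolated, with 9482682 bp to the nearest wild-type peak and 11347449 bp to the nearest *vhl* peak.

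The other 4 lay together within 3634 bp, from 61296113 to 61299746, and were picked out for description only once their values were known. They were the last peaks of either list on the chromosome. The far end below means this last position, as no chromosome length was used. They held 29, 51, 89 and 84 tags over 268, 534, 633 and 588 bp. Their fold enrichments of 8.39, 5.05, 3.42 and 4.17 were among the lowest of the wild-type list, and 3.42 was the lowest of all 1280. By tags the same peaks ranked 48, 23, 5 and 8. The same rough index of local background, tags per kb divided by fold enrichment, lay at percentiles 98.2 to 99.8 of the wild-type list. The 4 peaks held 253 of the 325 tags in wild-type peaks of the far part (77.8%) and 42.7% of those in wild-type peaks of the whole chromosome. Without them the median of the far part was 6 tags and 94.5 bp, against 7.5 tags and 100.5 bp with them. No *vhl* peak lay within 1 Mb, the nearest being the last of the list at chr4:60226724-60227165.

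The median wild-type score was 64.4 in the far part (range 57.3 to 88.2), 57.2 in the near part and 57.9 on the other chromosomes. The highest of them ranked 117 of 1280. The FDR was above 5% for every one of the 14 (0 of 14 at or under it, which allows a share of up to 21.4%, against 3.59% of the whole wild-type list). In the near part 1 of 29 had an FDR of at most 5%, the peak at chr4:13792082-13792506 with 51 tags, enriched 44.92-fold, and a score of 482.41. The peak at chr4:7447448-7447618, also among the 5 highest wild-type scores of the near part, had 25 tags, enriched 8.08-fold, and a score of 70.06. It resembled the first of the 4 peaks at the far end, with 29 tags and a fold enrichment of 8.39. Peaks with many tags and low enrichment were thus not confined to the far part. A score of 100 or more was found for none of the 14 in the far part and for 2 of 29 in the near part, against 7.58% of the whole list. The median FDR was 69.6% in the far part, 48.9% in the near part and 48.8% on the other chromosomes. The first wild-type peak of the far part, at chr4:28200039-28200140, had 8 tags and a score of 62.01. The last of the near part, at chr4:24566762-24566869, had 9 tags and a score of 70.09, and lay 3.63 Mb from it. The first wild-type peak of the chromosome, at chr4:245441-245520, had 6 tags and a score of 57.57.

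*vhl* peaks outnumbered wild-type peaks in the near part and not in the far part. The ratio of their numbers was 0.571 in the far part (8 against 14 peaks, interval 0.208 to 1.46) and 5.17 in the near part (150 against 29, interval 3.46 to 7.99), against 4.06 on the other chromosomes together. In the parts at or above the boundary of the other chromosomes it ran from 1.76 on chromosome 9 to 6.83 on chromosome 12, so chromosome 4 had the lowest, although its own interval includes 1. More wild-type than *vhl* peaks were counted in 4 of the 11 whole windows of the far part, and in 11 of 417 windows spread over 10 of the other chromosomes. This order depends on the threshold. Among peaks with an FDR of at most 5% the far part held 6 *vhl* and no wild-type peaks, and with a score of 100 or more 5 and none. The *vhl* ChIP library entered peak calling with 16145214 tags and the wild-type ChIP library with 7554444, a ratio of 2.14, and the counts are not scaled for this. The modelled fragment length also differed, at 110 bp for *vhl* and 34 bp for wild-type, the latter below the read length of 35 bp. Its effect on the peak numbers was not tested.

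No peak of the far part was shared between the genotypes. Of its 14 wild-type peaks none overlapped a *vhl* peak by at least 1 bp (which allows a share of up to 21.4%), and their median distance to the nearest *vhl* peak was 1071623 bp. That median falls among the 4 peaks within 3634 bp at the far end, which count as 4 values. As *vhl* peaks are sparse in the far part, the distance is no separate result about overlap. The closest approach was 16387 bp, between the *vhl* peak at chr4:28471589-28472395 and the wild-type peak at chr4:28488783-28488874. In the near part *vhl* peaks covered at least 1 bp of 4 of the 29 wild-type peaks (13.8%, interval 5.50 to 30.6%). The share was 12.6% in the whole wild-type list, and in the near part the median distance was 67697 bp. With 14 peaks, a difference in overlap between the parts was not detectable. Seen from the *vhl* list, 0 of 8 peaks of the far part and 4 of 150 of the near part had a wild-type peak, against 2.92% of the whole list.

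The 4 shared sites differed widely in strength. The wild-type FDR was at most 5% at only 1 of them, chr4:13792082-13792506. At the others, in order of position, it was 42.22%, 85.88% and 82.49%, and the *vhl* peak at chr4:5069391-5069831 had an FDR of 11.8%. At chr4:24565733-24567217, inside the *pfkfb3* run, the *vhl* peak had 410 tags and a score of 1762.44, and the wild-type peak within it had 9 tags and a score of 70.09. At chr4:13791971-13792711 the *vhl* peak had 72 tags and a score of 130.52, and its wild-type partner 51 tags and a score of 482.41, the highest wild-type score of the chromosome. At chr4:5069391-5069831 the *vhl* peak had 28 tags and a score of 57.31, and the wild-type peak 12 tags and a score of 117.39. At chr4:21274433-21275147 the *vhl* peak had 60 tags and a score of 75.99, and the wild-type peak 11 tags and a score of 67.02. The *vhl* peak was longer in all 4 pairs (median length 728 bp in *vhl* and 124 bp in wild-type), and the summits were 5 to 78 bp apart. Over the whole lists the median length was 567 bp in *vhl* and 99 bp in wild-type. The difference in length was thus not particular to these sites. The strongest wild-type site thus coincided with a *vhl* peak of rank 1908. In the 10-peak *pfkfb3* run, with 3005 tags in its *vhl* peaks, 1 wild-type peak was called, with 9 tags. Reads outside called peaks were not counted, and the *vhl* ChIP library had 2.14 times the tags of the wild-type one.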

How the data were processed

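Hif-1α ChIP-seq was analysed from 1 *vhl* and 1 wild-type ChIP library, each with its input. Per the file headers and the study's methods, the authors aligned single reads of 35 bp to Zv9 (danRer7) with CASAVA 1.8.2, kept uniquely mapped reads and called peaks with MACS 1.4.2 at a p-value of 1e-05. MACS kept 1 tag per position: 16145214 of 33429235 reads of the *vhl* ChIP, 8584659 of 13834669 of its input, 7554444 of 16780814 of the wild-type ChIP and 9102419 of 19400899 of its input. It scaled the larger library to the smaller within a genotype, so the genotypes share no scale. The modelled fragment length was 110 bp for *vhl* and 34 bp for wild-type, the latter shorter than the 35 bp reads. The 2 lists were thus called with unlike settings, which may affect peak number, length and score, and this was not tested.

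The deposited lists give for each peak a raw tag count, a score, a fold enrichment (the ratio of ChIP to the local background over 1000 and 10000 bp) and an FDR as a percent, as the authors' run of MACS wrote them.

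Peaks were placed by their start. Spans ran from position 1 to the outermost peak of either list. Densities carry exact Poisson, ratios exact conditional and shares Wilson intervals. Overlap required 1 bp. Overlap and interval calculations were tested on simulated data. The work used pandas 2.3.3 and numpy 2.4.6 in Python 3.11.15, with scipy 1.17.1 for intervals and matplotlib 3.10.9 for plots.

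By rule, the named peaks are the 5 with the highest scores of each list in each part, the shared peaks, those next to the boundary and the outermost, and those of the genes the study pairs with a position on chromosome 4. Other peaks were named after their values were seen. The boundary, the measures and these rules were chosen with earlier results of these data known. The alternatives were other boundaries, stricter thresholds, other overlap rules, merging of close peaks and leaving peaks out.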

Additional observations from a re-analysis of the deposited data

How the results depend on the processing

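Of 50 alternative values, 46 stayed inside the interval of the value reported. Some of these could not move, so the tally overstates stability. The overlap share covers the whole chromosome, and other boundaries leave it at 9.30%. Leaving out the *pfkfb3* region, in the near part, cannot alter the far-part *vhl* to wild-type ratio of 0.571. Intervals for tags and length were wide, such as 0.75 to 8.5 for the far-to-near ratio of median wild-type tags. The far-to-near density ratio of *vhl* peaks lay between 0.0313 (boundary at position 30000000) and 0.0554 (score of 100 or more) in all 8 alternatives run, and that of wild-type peaks between 0.271 and 0.450. The value of 0.450, from peaks with a fold enrichment of 20 or more (4 against 7), has an interval of 0.0966 to 1.77 that includes 1. The lowest wild-type value came from leaving out the 4 peaks at the far end, an alternative chosen after seeing the data, which also moved the *vhl* to wild-type ratio of the far part to 0.8. In the near part that ratio became 35.5 with a score of 100 or more (71 against 2 peaks) and 117 with an FDR of 5% or less (117 against 1). The share of wild-type peaks of the chromosome that overlapped a *vhl* peak was 9.30% (4 of 43). It became 50% with a score of 100 or more (1 of 2) and 100% with an FDR of 5% or less (1 of 1), since so few peaks were left. At these thresholds the far part held no wild-type peak, so 8 wild-type values and ratios could not be computed. No paired analysis was possible because each genotype has 1 library of each kind, and for the same reason no replicate could be left out. The wild-type peaks held a median of 7 tags each, so single values rest on few reads.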

Other observations

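The run of the last 4 wild-type peaks on chromosome 4 was set beside other wild-type peaks less than 1500 bp from a neighbour, a distance chosen after the run was seen. The wild-type list held 13 such runs, of which 11 had 2 peaks, 1 had 3 (chr3:125584-126952, 35 tags) and 1, on chromosome 4, had 4. In 2 of the 13 runs every fold enrichment was under 9. These were the run on chromosome 4 (253 tags, fold enrichments 3.42 to 8.39) and a pair at chr17:9797272-9799407 (209 tags, fold enrichments 6.04 and 6.58). They were also the runs with the most tags, ahead of a pair at chr5:16031115-16032050 with 94 tags and fold enrichments of 9.33 and 38.98. Why they combine many tags with low enrichment was not tested.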
